A study of Mus musculus with 295 samples.

Results

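Adipose tissue of 94 F2 mice was compared between the late and the early end of the numbers that the mice carry in the sample titles. The mice were chosen by a measured value and a label: the Y-linked gene Eif2s3y had to lie below -0.6 as deposited, and the number had to be 248 to 399 (late, 47 mice) or 2 to 118 (early, 47 mice). They are 94 of 295 arrays. A further 48 Eif2s3y-low mice have numbers in between (middle), and 153 arrays are Eif2s3y-high. All mice are F2 offspring of C57BL/6J and C3H/HeJ parents, both strains lacking ApoE, and all received a Western diet rich in fat, which began at 8 and ended at 24 weeks of age. The early, middle and late mice thus share genotype class, diet and the tissue, and the labels give no date, litter, body weight, genotype or sex for single mice. Nor do they say whether the number follows the order of birth, of tissue collection or of hybridisation, so these cannot be told apart here. A mouse numbered 399 in its title is 339 in its source name, and counts as late under either number.

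Each value is a ratio of 1 mouse's RNA, labelled Cy3, over a Cy5-labelled pool to which the mice's RNAs contributed equally. The sources used here state neither the log base nor the direction of the deposited values. Eif2s3y had a median of 0.379 as deposited in the 153 Eif2s3y-high mice, and a transcript contributed to the pool by 153 of 295 equal portions would give 0.285 as log10, 0.657 as natural log or 0.947 as log2, each for mouse over pool. For 4 epididymis genes, carried by 47 arrays, the prediction is 0.798 as log10, 1.84 as natural log or 2.65 as log2, and the medians were 0.645 for Lcn8, 0.454 for Lcn9, 0.408 for Gpx5 and 0.35 for Adam7. Eif2s3y thus lay above and these 4 below the log10 prediction, and log10 was the nearest of the 3 for all 5. The values were therefore read as log10 of mouse over pool and are given here as log2, and every fold size rests on that reading. Eif2s3y itself chose the mice and is only described: on the log2 scale it ran from -6.51 to -4.17 in the late mice and from -6.23 to -4.19 in the early mice. Of all arrays, the closest below the threshold lay at -1.25 as deposited and the closest above it at -0.0311, so no array lay near it. Kdm5d, a second Y-linked gene, had medians of -3.87 in late and -3.84 in early mice.

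White adipose tissue stores triglyceride in adipocytes and also holds macrophages, fibroblasts, vessels and a mesothelial covering. In mice the gonadal fat depot lies against the ovary and oviduct in females and the epididymis in males, so dissected fat can carry transcripts of those organs. Oocytes express zona pellucida proteins and their regulators, granulosa and luteal cells make steroids, and the oviduct lining carries motile cilia. In obese fat, macrophages gather around adipocytes and the matrix thickens. Clock genes cycle over the day and immediate early genes respond to handling within minutes, so both can differ with the time or manner of dissection.

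Of 22894 probes tested, 362 differed between late and early mice at an adjusted p under 0.05 (limma with Benjamini-Hochberg adjustment), which is 1.58% of the probes. Of these, 94 were higher in late mice (0.411%) and 268 were lower (1.17%). The median size was 0.31 log2 for the higher and 0.44 log2 for the lower probes. A difference of at least 2-fold was reached by 15 of the lower and 0 of the higher probes. The median over all probes was 0.01 log2, and 3734 probes had an unadjusted p under 0.05, 16.3% of those tested. The labels do not say whether mice with close numbers were littermates, and the p-values treat every mouse as independent.

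Skap2 differed more than any other gene by p-value. It encodes an adaptor protein that links Src-family kinases to the actin cytoskeleton in macrophages and other leukocytes. Its promoter window is shown because it is the 1 called gene that passed the test under every alternative setting tried. The window is the 250 bases before the RefSeq start site (GRCm38.p6, chr6:52012550-52012799, minus strand), with capitals marking the E-box CANNTG, searched on both strands at once because the motif is its own complement.
Skap2: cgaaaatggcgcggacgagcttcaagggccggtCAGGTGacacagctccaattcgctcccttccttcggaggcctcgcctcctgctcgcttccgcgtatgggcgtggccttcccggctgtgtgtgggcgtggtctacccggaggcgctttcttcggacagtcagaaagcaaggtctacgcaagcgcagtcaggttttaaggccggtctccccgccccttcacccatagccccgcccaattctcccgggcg
The window is 64% G and C and holds 1 E-box, 217 to 212 bases before the start, as at least 1 E-box is found in 66.2% of 32851 promoter windows of the same length.

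In the late mice the lowest, median and highest Skap2 levels were -2.33, -1.42 and 1.54 on the log2 scale. In the early mice they were -2.30, 0.70 and 2.15. Both groups spanned nearly the same range, but the levels fell into a high and a low cluster that the groups filled unequally: 4 of 47 late mice lay above 0, against 36 of 47 early mice. The mean difference was -1.67 ± 0.21 log2 (SE; 47 and 47 mice; adjusted p = 7.33e-08, limma), a 3.19-fold lower level, and 44 of 47 late mice lay below the early median. Because the values are clustered, the mean difference measures a change in the share of mice in each cluster.

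**Figure D1:**
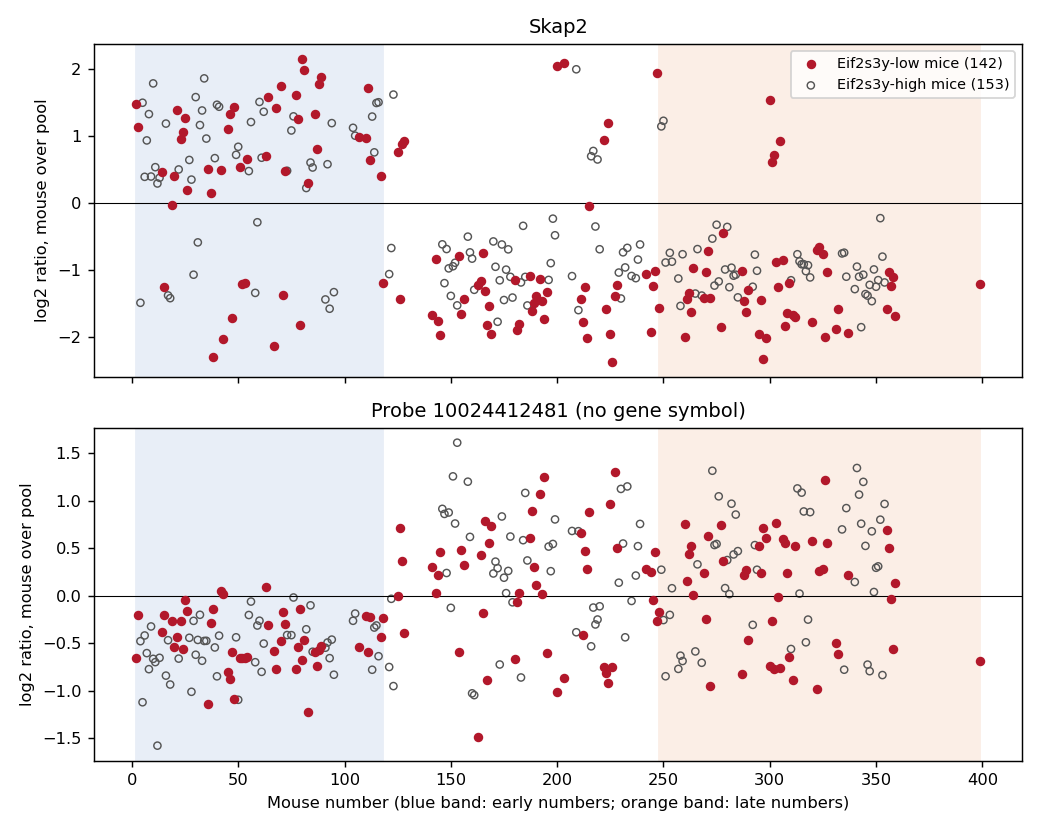
Level of Skap2 (top) and of a probe with no gene symbol (bottom), as log2 of mouse over pool, against mouse number, 1 point per mouse. Red points are the 142 Eif2s3y-low and open circles the 153 Eif2s3y-high mice; the coloured bands mark the early and late numbers. Skap2 lies mostly above 0 up to number 128 and mostly below 0 from number 141, and the lower probe is at most 0.09 up to number 118 in the red points and spreads both ways at later numbers.

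The change did not run evenly along the numbers. Among the Eif2s3y-low mice, 39 of 51 with numbers up to 128 had Skap2 above 0, against 9 of 91 with numbers from 141 on. The break between 128 and 141 was chosen after the values were seen and is given without a test. Just after the break, 0 of 7 Eif2s3y-low mice numbered 141 to 160 and 0 of 8 numbered 161 to 180 lay above 0. The 9 exceptions from 141 on carried the numbers 200, 203, 222, 224, 247, 300, 301, 302 and 305, so that several were neighbours in number. The fit with 3 ranges put middle minus early at -1.45 ± 0.22 log2 (adjusted p = 1.26e-05) and late minus middle at -0.22 ± 0.22 log2.

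Eif2s3y-high mice, which the selection did not use, showed the same break. Among them 43 of 55 with numbers up to 128 had Skap2 above 0, against 6 of 98 from number 141 on. Over the Eif2s3y-high arrays without epididymis transcripts, the late minus early difference was -1.71 ± 0.17 log2 (48 late, 18 early; adjusted p = 1.25e-10). The late levels ran from -1.86 to 1.23 with a median of -1.01, and the early levels from -1.35 to 1.86 with a median of 0.90. With the epididymis arrays kept, the difference was -1.50 log2. The 2 sets differed by 0.04 ± 0.30 log2, a difference within its error.

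Skap2 lies on chromosome 6 next to the Hoxa cluster. Of the 15 protein-coding genes on each side of it in the RefSeq gene order, 17 of 30 were measured. In the Eif2s3y-low mice 0 of these 17 were called, against 1.58% of all probes. At that share 17 genes are too few for a count of 0 to show whether the change is confined to Skap2. Hoxa5, a homeobox gene of that cluster, differed by 0.14 ± 0.07 log2 in them (adjusted p = 0.35). The neighbours were looked at after the result for Skap2 was known.

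A probe without a gene symbol (10024412481) had the second smallest p, and it too is described because of its values. Its late levels ran from -0.99 to 1.22 with a median of 0.23, and its early levels from -1.22 to 0.09 with a median of -0.53. The early mice filled only the lower portion of the late range: 29 of 47 late mice and 3 of 47 early mice lay above 0. The mean difference was 0.54 ± 0.09 log2 (adjusted p = 0.000847, limma). From number 141 on it was above 0 in 57 of 91 Eif2s3y-low and 68 of 98 Eif2s3y-high mice. Up to number 128 it was above 0 in 5 of 51 Eif2s3y-low and in 0 of 55 Eif2s3y-high mice. In the 9 Eif2s3y-low mice from number 141 on with Skap2 above 0, this probe was below 0 in all 9, between -1.02 and -0.26. Of the 6 such Eif2s3y-high mice, 1 (number 249) had both above 0, with Skap2 at 1.14 and the probe at 0.27 log2. Up to number 128, 3 of 51 Eif2s3y-low mice had both above 0. In late minus early of the Eif2s3y-high mice it differed by 0.65 ± 0.16 log2 (adjusted p = 0.0707), short of the threshold.

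Transcripts of the ovary were lower in late mice, and they marked single arrays. Zp2, a protein of the egg's zona pellucida, ran from -1.23 to 1.90 in late mice with a median of -0.63, and from -1.58 to 2.61 in early mice with a median of 0.92. The levels formed a high and a low cluster, with 27 of 47 early, 15 of 48 middle and 12 of 47 late mice above 0. The mean difference was -0.85 ± 0.21 log2 (adjusted p = 0.0261). Gdf9, a growth factor secreted by the oocyte, ran from -1.22 to 2.05 in late mice with a median of -0.74, against -1.16 to 2.41 with a median of 0.63 in early mice. It differed by -0.81 ± 0.21 log2 (adjusted p = 0.034).

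Of 21 measured genes of an oocyte list, which was drawn up after these genes had been seen to move, 11 were lower, 0 were higher and the median was -0.46 log2, against 0.01 log2 over all probes and 1.17% called lower. The 11 include the zona protein Zp1 (-0.64 ± 0.17), the oocyte transcription factors Figla (-0.43 ± 0.11) and Nobox (-0.46 ± 0.11), and Oas1d (-0.69 ± 0.17) and Oas1e (-1.12 ± 0.30), oocyte-expressed relatives of the antiviral oligoadenylate synthetases. Dppa5a (-0.53 ± 0.12), Nlrp5 (-0.72 ± 0.18), Tcl1 (-0.82 ± 0.23) and Zar1 (-0.68 ± 0.18), all known from mouse oocytes or early embryos, passed as well. In the mouse, FIGLA binds E-boxes in the promoters of the zona genes, and the Zp3 window is shown for that reason, with the E-boxes CANNTG in capitals (250 bases before the RefSeq start, GRCm38.p6, chr5:135979855-135980104, plus strand).
Zp3: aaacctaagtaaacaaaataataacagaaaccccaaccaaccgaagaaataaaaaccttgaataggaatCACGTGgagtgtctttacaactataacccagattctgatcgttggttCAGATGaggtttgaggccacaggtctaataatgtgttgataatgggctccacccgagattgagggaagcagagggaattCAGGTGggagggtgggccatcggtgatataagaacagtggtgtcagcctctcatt
It holds 3 E-boxes, and the one at 181 to 176 bases before the start reads CACGTG, which 6.02% of the 32851 windows hold. Zp3 itself differed by -0.41 ± 0.12 log2 (adjusted p = 0.0577) and did not pass. Matches of letters are a description and were not tested as binding sites.

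Some genes of the granulosa and luteal cells were lower as well. Of 19 measured members of a list also drawn up after the data were seen, 4 were lower, against 1.17% of all probes, and 0 higher, with a median of -0.83 log2. They are Amhr2, the receptor for anti-Müllerian hormone (-0.87 ± 0.23), Fdx1, the electron donor of steroid hydroxylases (-0.83 ± 0.21), and the transcription factors Nr5a2 (-0.68 ± 0.18) and Lhx9 (-0.77 ± 0.20). In the broader list of ovary, uterus and steroid synthesis, 0 of 11 measured members passed at a median of -0.87 log2. In the trend over all 142 mice described further on, 5 of 11 passed as lower, against 2.43% of all probes in that fit. Closest to passing in late minus early was Foxl2, a granulosa transcription factor, at -1.06 ± 0.31 log2 (adjusted p = 0.0529, limma). Inha, the inhibin alpha subunit, followed at -1.25 ± 0.37 log2 (adjusted p = 0.0596). Cyp11a1 and Hsd3b1, enzymes of steroid synthesis, differed by -1.49 ± 0.45 and -1.77 ± 0.58 log2 with adjusted p of 0.0613 and 0.0825.

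The mean level of Cyp11a1 and Hsd3b1 was above 0 in 25 of 47 early, 16 of 48 middle and 12 of 47 late Eif2s3y-low arrays, or 53.2%, 33.3% and 25.5%. These 53 arrays stood apart: the lowest mean among them was 0.20 log2 and the highest mean among the other 89 was -0.21 log2. Gdf9 was above 0 in 51 of the 53 and in 0 of the other 89, and Oas1e in 52 of the 53 and 0 of the 89. Without these arrays 35 late and 22 early mice remained, and 1 probe was called (0.00437%), Skap2, at -1.65 ± 0.23 log2 (adjusted p = 4.59e-05). The median of the 268 lower probes was then -0.17 log2, against -0.44 with all arrays, and that of the 94 higher probes was 0.28 log2 against 0.31. At an unadjusted p under 0.05 the restricted fit had 1662 probes (7.26%). The line between the arrays was drawn from their ovarian levels after these were seen, so the loss of the ovarian genes under it follows from its construction. In bulk tissue fewer cells of a type and less RNA per cell cannot be told apart.

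Several of the most reduced genes stood with these arrays. Hao2, a peroxisomal hydroxy acid oxidase, ran from -3.85 to 2.53 in late mice with a median of -2.24, against -3.85 to 3.94 with a median of 1.39 in early mice. It differed by -1.71 ± 0.44 log2 (adjusted p = 0.0317), and was above 0 in 52 of the 53 arrays with ovarian transcripts and in 5 of the other 89. The estrogen-responsive gene Greb1 differed by -1.38 ± 0.33, the receptor subunit Grin2c by -1.24 ± 0.32, the R-spondin receptor Lgr5 by -1.20 ± 0.31 and the dynein chain Dync1i1 by -1.20 ± 0.32 log2. Bex1, an X-linked gene, differed by -1.08 ± 0.26 log2. Without the 53 arrays the differences of these 6 genes lay between -0.52 log2 for Hao2 and -0.10 log2 for Dync1i1, with adjusted p of at least 0.658.

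Of 12 measured genes of a ciliated cell list 3 were lower, against 1.17% of all probes. Foxj1, the transcription factor that switches on motile cilia, ran from -2.91 to 1.41 in late mice with a median of -2.05, and from -3.13 to 2.06 in early mice with a median of -1.66. Most mice of both groups were low, and the groups differed in their high mice: 4 of 47 late and 17 of 47 early mice were above 0. It differed by -1.04 ± 0.29 log2 (adjusted p = 0.0367). The axonemal dynein Dnah9 differed by -1.08 ± 0.29 log2 and the adenylate kinase Ak7 by -0.86 ± 0.22 log2. The list, again drawn up after the data were seen, had a median of -0.08 log2, with 11 of 12 members below 0. All 26 Eif2s3y-low arrays with Foxj1 above 0 were among the 53 with ovarian transcripts. Without those 53 the differences of Foxj1, Dnah9 and Ak7 were -0.02, -0.10 and -0.09 log2.

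**Figure D2:**
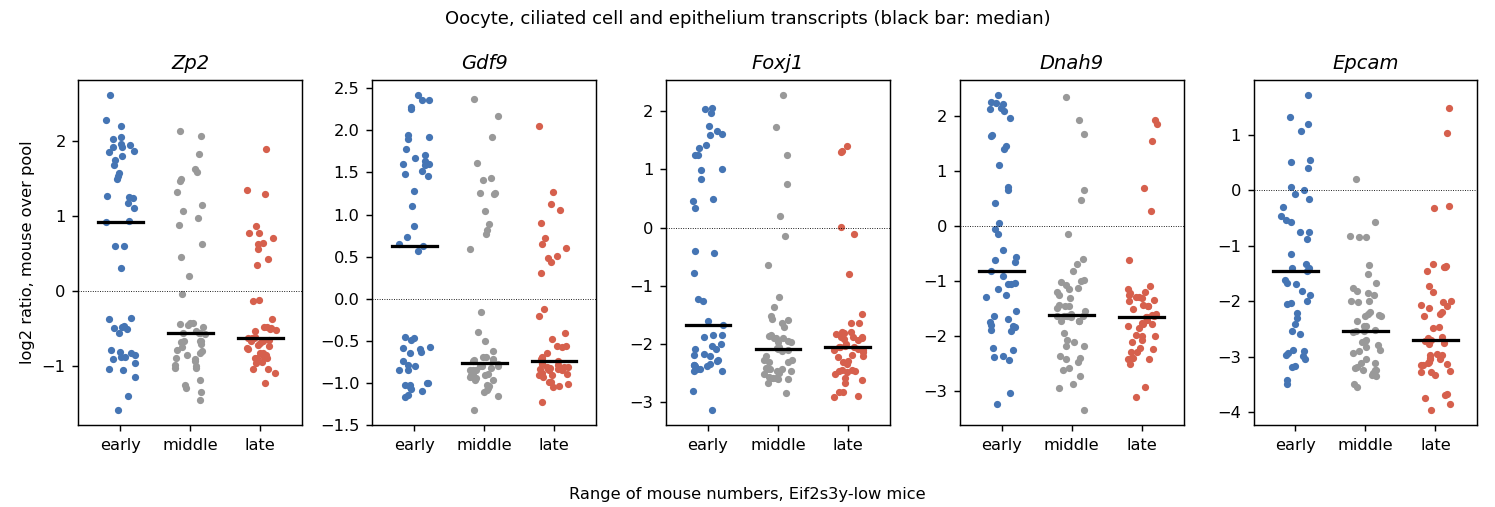
Levels of 2 oocyte genes (Zp2, Gdf9), 2 ciliated cell genes (Foxj1, Dnah9) and the epithelial gene Epcam in Eif2s3y-low mice, as log2 of mouse over pool, by range of mouse number; each point is a mouse and the black bar is the median. The upper clusters thin out after the early range: 25 of 47 early, 14 of 48 middle and 12 of 47 late mice have Gdf9 above 0.

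A few epithelial and mesothelial genes were lower. The epithelial adhesion molecule Epcam ran from -3.95 to 1.47 in late mice with a median of -2.69, and from -3.48 to 1.71 in early mice with a median of -1.46. It differed by -1.04 ± 0.26 log2 (adjusted p = 0.0261, limma). With the keratin Krt19 (-0.51 ± 0.14) it made up the 2 of 19 measured epithelium genes that were called, against 1.17% of all probes called lower. The chloride channel gene Cftr differed by -1.15 ± 0.26 log2 (adjusted p = 0.0185), with 4 of 47 late and 16 of 47 early mice above 0. Of 3 measured mesothelium genes, Msln, the surface protein mesothelin, differed by -0.59 ± 0.14 and the transcription factor Wt1 by -0.57 ± 0.12 log2, while Lrrn4 did not pass. Msln ran from -1.93 to 1.57 with a median of 0.21 in late mice and from -0.42 to 2.14 with a median of 0.78 in early mice. Unlike the oocyte genes, Msln and Krt19 kept differences of -0.77 and -0.47 log2 without the 53 arrays, with adjusted p of 0.658 for both. Wt1, which the ovary also expresses, was at -0.31 log2 there.

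**Figure D3:**
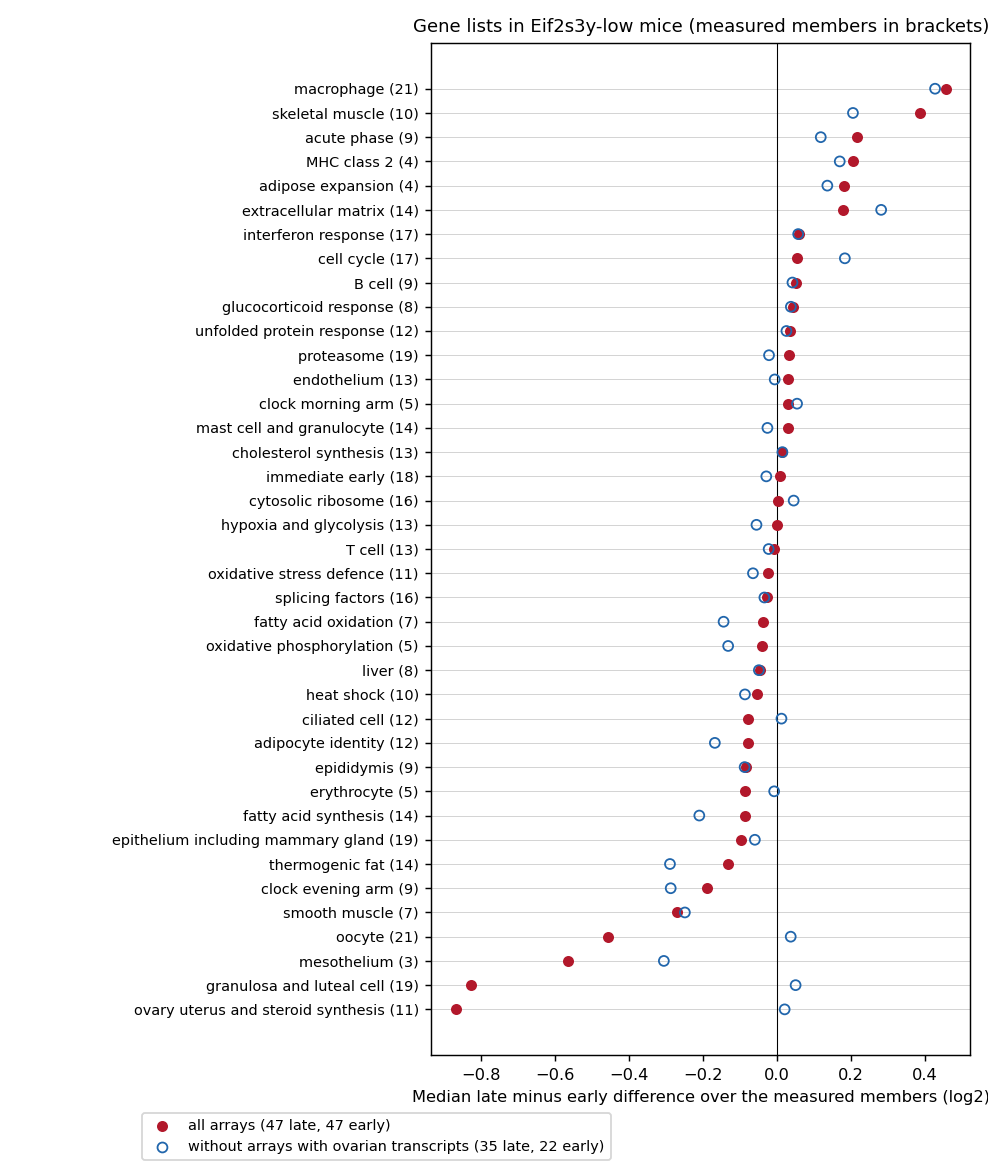
Median late minus early difference (log2) over the measured members of each gene list with at least 3 measured members, in Eif2s3y-low mice; filled points use all arrays and open points leave out the arrays with ovarian transcripts. The macrophage list is at 0.46 with and 0.43 without them, and the oocyte list at -0.46 with and 0.04 without them.

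Some macrophage genes were higher in late mice. Adgre1, which encodes the macrophage surface antigen F4/80, ran from -1.93 to 1.27 in late mice with a median of -0.35, and from -3.04 to 0.68 in early mice with a median of -0.96. The groups overlapped widely, and 33 of 47 late mice lay above the early median. Adgre1 differed by 0.64 ± 0.18 log2 (adjusted p = 0.0444) and the lysozyme gene Lyz2 by 0.46 ± 0.13 log2 (adjusted p = 0.0425). These were 2 of 21 measured members of the macrophage list called higher, against 0.411% of all probes. The list's median was 0.46 log2 and 20 of 21 members were above 0, and in the trend over all 142 mice 9 of 21 were called higher, against 1.17% of all probes in that fit.

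Other called genes known from macrophages or other myeloid cells were the chemokine Ccl9 (0.65 ± 0.16), the surface receptors Igsf6 (0.63 ± 0.17) and Clec4a2 (0.52 ± 0.15), and the lipoprotein-associated phospholipase Pla2g7 (0.53 ± 0.14). Hmox1, which breaks down heme, had the largest positive difference, at 0.89 ± 0.25 log2 (1.85-fold, adjusted p = 0.0443). It ran from -2.30 to 2.20 with a median of 0.07 in late mice and from -3.79 to 1.50 with a median of -0.52 in early mice. F7, the gene of coagulation factor VII, differed by 0.88 ± 0.23 log2. ARL11, Adssl1 and Stra6l differed by 0.53 ± 0.14, 0.52 ± 0.15 and 0.59 ± 0.16 log2. A macrophage score was the mean over the list's genes, each first centred and scaled to 1 SD over all arrays. With this score as a covariate, the median of the 94 higher probes was 0.11 log2 in place of 0.31. Only 2 probes were then called (0.00874%), Skap2 and the probe without a symbol. The score holds Adgre1, Lyz2 and other macrophage genes of the same arrays. The loss of these genes, and of genes that vary with them, thus follows in part from its construction. The score, in SD units, had a median of -0.64 in early, -0.26 in middle and -0.14 in late mice.

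Acute phase and matrix genes rose in the late mice in a few members each. Saa3, the serum amyloid A gene of adipose tissue, ran from -2.16 to 1.57 with a median of 0.15 in late mice, against -2.26 to 0.97 with a median of -0.68 in early mice, and differed by 0.62 ± 0.17 log2 (adjusted p = 0.0362). With the protease inhibitor Serpina3n (0.37 ± 0.10) it made 2 of 9 measured acute phase genes called higher, against 0.411% of all probes. Of 14 measured matrix genes 3 were higher, against the same share: the collagen chain Col5a2 (0.39 ± 0.10), the collagen cross-linking enzyme Lox (0.43 ± 0.11) and periostin, Postn (0.42 ± 0.11). The list's median was 0.18 log2, and 13 of 14 members were above 0. The metalloproteinase gene Mmp3, which breaks down matrix, differed by 0.58 ± 0.15 log2.

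Mfap5, a protein of elastic microfibrils, had the smallest p among the higher genes. It ran from -0.66 to 0.65 in late mice with a median of -0.09, and from -1.62 to 0.42 in early mice with a median of -0.42, and 42 of 47 late mice lay above the early median. It differed by 0.41 ± 0.08 log2 (adjusted p = 0.00929). Penk, which encodes the precursor of the enkephalin peptides, differed by 0.42 ± 0.09 log2 (adjusted p = 0.0185). In the 3-range fit, late minus middle was 0.26 ± 0.09 for Mfap5 and 0.35 ± 0.10 log2 for Penk, and middle minus early was 0.15 ± 0.09 and 0.07 ± 0.10 log2. Neither step passed the test for either gene. The other 4 with the smallest p were smaller in size: Crybg1 (0.18 ± 0.04), the potassium channel gene Kcnj15 (0.23 ± 0.05), Rab29 (0.26 ± 0.06) and the interferon-inducible Epsti1 (0.27 ± 0.06).

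Immediate early and clock genes were lower in some members. Ier3, an immediate early gene of the stress response, ran from -1.12 to 0.83 with a median of -0.25 in late mice and from -0.69 to 1.55 with a median of 0.22 in early mice. It differed by -0.49 ± 0.10 log2 (adjusted p = 0.00929), with 15 of 47 late and 34 of 47 early mice above 0. The transcription factor gene Egr1 differed by -0.39 ± 0.09 and Ier2 by -0.20 ± 0.06 log2. These were 3 of 18 measured immediate early genes, against 1.17% of all probes called lower. The list's median was 0.01 log2, so the list did not shift as a whole. Of 9 measured genes of the clock's evening arm, which cycle opposite to the morning arm, 2 were lower, against the same 1.17%. Nr1d1, the nuclear receptor REV-ERB alpha, differed by -0.50 ± 0.12 log2 (adjusted p = 0.0214, limma) and Dbp by -0.28 ± 0.08 log2 (adjusted p = 0.0363). Nr1d1 ran from -1.61 to 0.99 with a median of -0.19 in late mice, against -0.87 to 1.22 with a median of 0.39 in early mice. The evening list's median was -0.19 log2, and of 5 measured genes of the morning arm 0 were called, at a median of 0.03 log2.

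**Figure D4:**
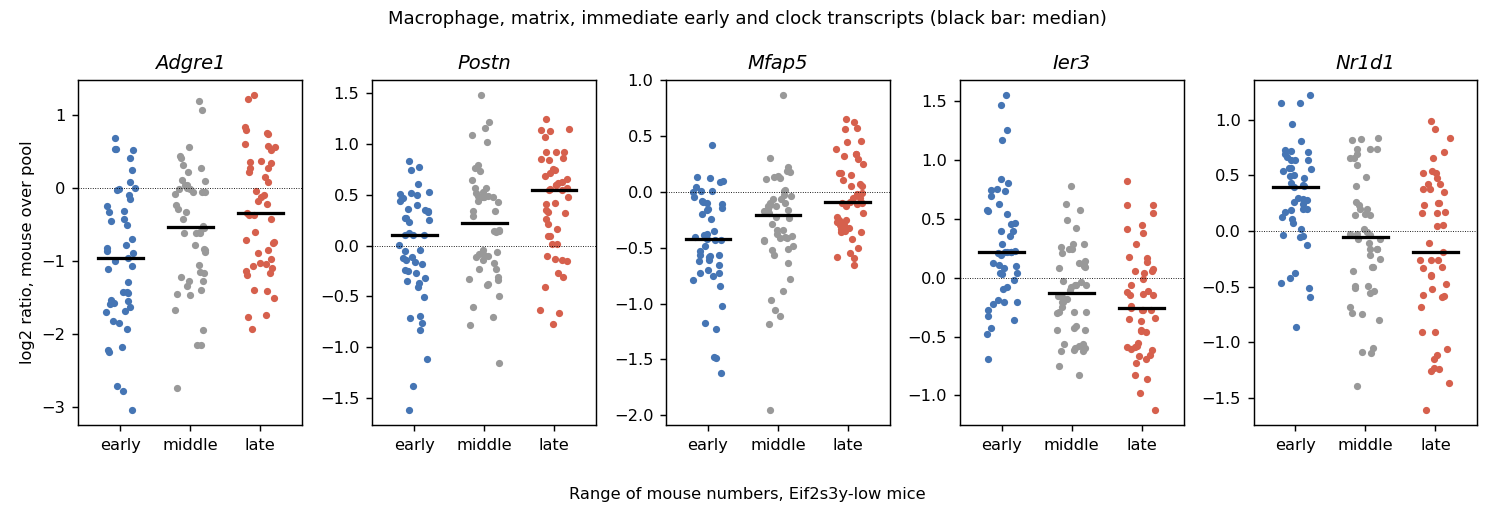
Levels of a macrophage gene (Adgre1), 2 matrix genes (Postn, Mfap5), an immediate early gene (Ier3) and a clock gene (Nr1d1) in Eif2s3y-low mice, as log2 of mouse over pool, by range of mouse number; each point is a mouse and the black bar is the median. All 5 genes overlap between the ranges, and the late median of Adgre1 is -0.35 against -0.96 in early mice.

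The other genes with the smallest p among the lower ones were Scrn2 (-0.25 ± 0.05), the lipid phosphodiesterase Smpdl3b (-0.46 ± 0.09), Slc23a3 (-0.37 ± 0.08) and Whrn (-0.53 ± 0.11), with adjusted p between 0.00929 and 0.0145. The splicing factor Srsf3 (-0.12 ± 0.03) was the 1 of 16 measured splicing factors that passed, with 1.17% of all probes called lower. Hmox1 was the 1 of 11 measured oxidative stress genes that passed, with 0.411% of all probes called higher.

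No member passed in the lists that describe the adipocytes themselves. With 1.58% of all probes called, a count of 0 in lists of this size, here and below, says little about the cells they describe. Of 12 measured adipocyte identity genes 0 were called, at a median of -0.08 log2, of 14 fatty acid synthesis genes 0, at -0.09 log2, and of 14 thermogenic fat genes 0, at -0.13 log2. In the same order, 8 of 12, 12 of 14 and 13 of 14 members lay below 0. Without the arrays with ovarian transcripts the 3 medians were -0.17, -0.21 and -0.29 log2. With the macrophage score as a covariate they were 0.06, 0.05 and 0.06 log2. Lep, the gene of the hormone leptin, which rises with fat mass, ran from -0.64 to 0.82 with a median of 0.22 in late mice and from -1.08 to 0.97 with a median of 0.06 in early mice, a difference of 0.18 ± 0.09 log2 (adjusted p = 0.292). With Lep as a covariate 5 probes were called (0.0218%), Skap2, Ier3 and 3 without a symbol, and with the ovarian level as a covariate 2 (0.00874%), Skap2 and the probe without a symbol. Apoe, disrupted in both parental strains, differed by -0.13 ± 0.09 log2. The T cell (13), B cell (9), interferon (17), endothelium (13), cell cycle (17), ribosome (16) and proteasome (19) lists also had 0 called members, with medians between -0.01 and 0.06 log2. Skeletal muscle genes had a median of 0.38 and smooth muscle genes of -0.27 log2, again with 0 called, of 10 and 7 measured.

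A slope over the numbers of all 142 Eif2s3y-low mice called 826 probes (3.61%), 269 higher with number (1.17%) and 557 lower (2.43%). With array medians removed and arrays scaled to 1 SD, the split was 218 higher and 786 lower. With array weights it turned round, to 1894 higher and 1397 lower. The fit with 3 ranges called 783 probes for middle minus early (3.42%), 157 higher (0.686%) and 626 lower (2.73%), and 0 for late minus middle (0%). For late minus middle, limma gave 910 probes at an unadjusted p under 0.05, which is 3.975% of those tested. With array medians removed, middle minus early gave 99 higher and 825 lower. The 2 steps share the middle mice. Over the 268 lower probes the median step was -0.37 log2 from early to middle numbers and -0.05 log2 from middle to late numbers. Over the 94 higher probes the steps were 0.20 and 0.10 log2.

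In the Eif2s3y-high mice, the comparison was made without arrays carrying epididymis transcripts (mean level of Lcn8, Lcn9, Adam7 and Gpx5 above 0), since these made up 34 of 52 early, 10 of 50 middle and 3 of 51 late arrays. The line rests on these 4 genes, and some kept arrays still carried other such transcripts. Ces5a, a further epididymis gene, was above 0 in 3 late and 1 early kept arrays, and Cftr in 0 late and 3 early ones. With 48 late and 18 early mice, 38 probes were called (0.166%), 5 higher (0.0218%) and 33 lower (0.144%). Of the probes called in the Eif2s3y-low mice, 90 of 94 higher and 237 of 268 lower ones had the same sign in the Eif2s3y-high mice, which share no mouse with them. The share of all probes with the same sign in both sets was not computed, and probes that move together are not separate agreements. The median differences of the called probes there were 0.12 and -0.16 log2, against 0.31 and -0.44 log2. The probes were chosen by their differences in the Eif2s3y-low mice, which favours larger values in those mice. The smaller medians therefore do not show a weaker change in the Eif2s3y-high mice. Over all probes the median in the Eif2s3y-high mice was 0.01 log2. The direct test of the difference between the 2 sets called 0 probes (limma), with 796 (3.48%) at an unadjusted p under 0.05.

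Called in both sets with the same sign were 2 of the higher and 12 of the lower probes. The higher are Cd55 and Cd55b, which encode complement decay-accelerating factors, at 0.30 ± 0.08 and 0.26 ± 0.06 log2 in the Eif2s3y-low mice and at 0.38 ± 0.08 and 0.32 log2 in the Eif2s3y-high mice. The lower are probes of Skap2, Msln, Cftr, Ier3, Dbp, Csrp2, Rspo1 and Fras1 and 4 probes without a symbol. These genes are named because they were called in both sets. Msln differed by -1.34 ± 0.21 log2 in the Eif2s3y-high mice (adjusted p = 7.12e-05), Cftr by -1.25 ± 0.26 and Ier3 by -0.44 ± 0.09 log2. The LIM domain gene Csrp2 differed by -0.28 ± 0.07 in Eif2s3y-low and -0.42 log2 in Eif2s3y-high mice, and Rspo1, a secreted Wnt pathway enhancer, by -0.46 ± 0.11 and -0.90 log2. Dbp differed by -0.37 log2 in the Eif2s3y-high mice (adjusted p = 0.0313), and Nr1d1 by -0.47 ± 0.12 log2 (adjusted p = 0.0724). Adgre1 differed by 0.14 log2 there (adjusted p = 0.762), and the macrophage list had a median of 0.09 log2.

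**Figure D5:**
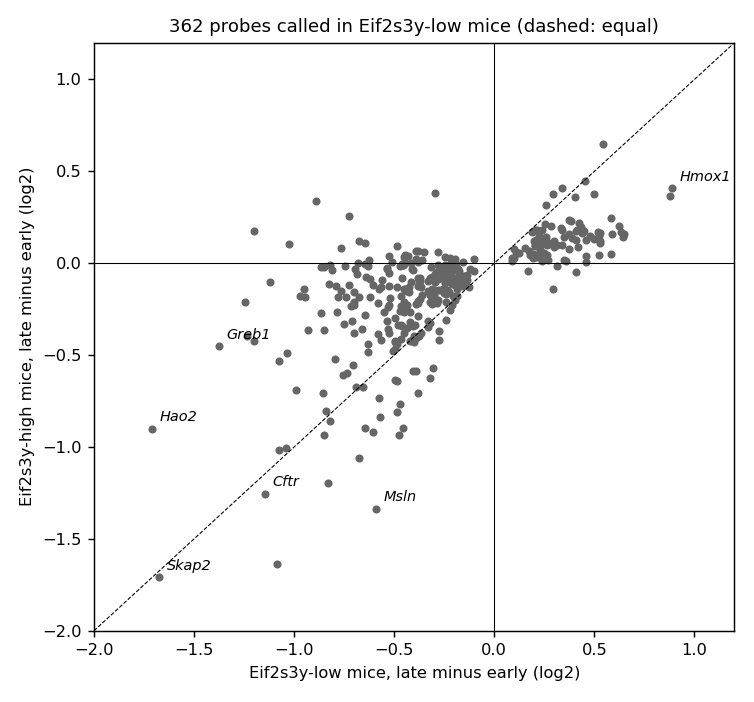
Late minus early difference (log2) in Eif2s3y-high mice without epididymis arrays (vertical) against that in Eif2s3y-low mice (horizontal) for the 362 probes called in the latter; the dashed line marks equal differences. Skap2 lies on the line at -1.67 and -1.71, and most other probes lie nearer to 0 in the Eif2s3y-high mice. The probes were chosen by their differences in the Eif2s3y-low mice, which favours larger values there.

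The arrays of the 2 sides did not differ detectably in 4 measures of the deposited ratios, which do not measure RNA quality or labelling. The SD over probes was 0.503 ± 0.055 in late and 0.521 ± 0.081 log2 in early arrays (SD, n = 47 each), the share of missing values 0.965% ± 0.471 and 0.909% ± 0.458, and the array median 0.064 ± 0.029 and 0.057 ± 0.023 log2. With the share of values at the limits of the scale, the 4 measures had adjusted p between 0.342 and 0.56 (2-sided permutation tests, 100000 resamples, Benjamini-Hochberg over 4 tests). Among the 10011 pairs of the 142 Eif2s3y-low arrays the lowest correlation over probes was -0.22 and the median 0.51, and 0 pairs lay below -0.3. A random block of 10 mice consecutive in number had a correlation of -0.000274 over probes and left 368 probes called. That value is 1 figure for all probes, so it cannot show that mice with close numbers are independent for a single probe.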

How the data were processed

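The authors deposited 1 table of log ratios for 295 two-colour arrays and 23387 probes. How intensities were corrected, normalized and centred is not stated in the sources read here, and the deposited values, read as log10, run to limits of -2 and 2. They were multiplied by 3.32 to give log2. A total of 22894 probes with a value in at least 90% of arrays were kept (493 left out; 1.02% of values are missing and were left so). Platform annotation, updated through RefSeq gene identifiers, gave 13644 probes 1 symbol, 48 several and 9695 none, and 12652 were matched by gene identifier. Late minus early, the slope over number and the 3-range fit used limma 3.58.1 in R 4.3.3 (lmFit, eBayes), with Benjamini-Hochberg adjustment over all probes. The fit was tested on simulated data. The number of arrays limits the precision.

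The mice, the 39 gene lists and the tests were chosen with earlier results of these data known, and 3 lists (oocyte, ciliated cell, granulosa and luteal cell) after the comparison itself. A gene is taken by its most variable probe with 1 symbol. Named genes are the 12 largest differences and the 6 smallest p in each direction among called genes, the 3 smallest p of each list, and Lep, Apoe, Eif2s3y, Kdm5d and Xist, for which no probe was named. For most lists the text gives only counts. The E-box search and the promoter windows use a RefSeq table (GRCm38.p6). Values from Python 3.11.15 use SciPy 1.17.1.

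Alternatives changed the centring and scaling of arrays, gaps, values at the limits, array weights, the edges of the sides, the test and covariates. Probes called by limma have an adjusted p under 0.05.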

Additional observations from a re-analysis of the deposited data

How the results depend on the processing

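The late minus early comparison of the Eif2s3y-low mice, with 362 calls, gave between 310 and 500 calls under 9 alternatives, among them removal of array medians, other rules for gaps and limits, stricter sides and a random block of 10 consecutive mice. Other settings moved the count by over 1.5 times: 232 with a rank sum test, 599 with arrays scaled to 1 SD, 636 with all 142 mice in 3 groups, 643 after quantile normalization and 1436 with array weights, of which 516 were higher. As covariates, Lep left 5 calls and the macrophage score 2, while array SD and missing share together gave 500. Of the settings chosen after seeing the data, the ovarian level as covariate left 2 and removal of arrays with ovarian transcripts left 1 (35 late and 22 early mice). Skap2 was called in all of these, between -1.74 and -1.52 log2 under the Lep, macrophage and ovarian covariates. The cause of the losses under those covariates was not tested. The trend gave 3291 calls with array weights, against 826, and most were then higher (1894) rather than lower (1397), the opposite of the unweighted split (269 and 557). With epididymis arrays kept, late minus early in Eif2s3y-high mice gave 12307 calls against 38, and the difference between the sets 3754 against 0. Keeping these arrays also raises the number of mice, and the cause was not tested. Without the arrays with ovarian transcripts, the sign turned for Cyp11a1 (0.0677), Hsd3b1 (0.0872), Figla (0.028), Foxl2 (0.0966), Gdf9 (0.0487), Inha (0.106), Lhx9 (0.0495), Tcl1 (0.0986), Zar1 (0.0391), Zp1 (0.0354) and Zp3 (0.0427 log2), and with the ovarian level as covariate for Hsd3b1 (0.0678 log2). No paired analysis was possible because each mouse number occurs once. In 1 late Eif2s3y-high mouse (310) the Y-linked genes disagreed, and without it 39 probes were called there. Signal over background is unknown, since the table holds ratios only.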
